A study of Mus musculus with 14 samples.

Results

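The genes described here encode the AMPA-type glutamate receptor and the proteins that travel with it. They are 4 pore-forming subunits (Gria1, Gria2, Gria3 and Gria4), 4 transmembrane AMPA receptor regulatory proteins or TARPs (Cacng2, Cacng3, Cacng4 and Cacng8) and 2 cornichons (Cnih2 and Cnih3). The 10 genes were picked by symbol from the 24421 genes of the deposited count table, and all 10 were among the 14897 genes with enough reads to be tested. RNA from the hippocampus of 7 male mice labelled LPAR2-/- and 7 male mice labelled as wild-type controls (WT) was depleted of ribosomal RNA and sequenced in 1 library for each mouse. LPAR2 is a receptor for lysophosphatidic acid, and the comparison asks how transcripts of the hippocampus differ in its absence. All mice were naive, untreated, of the strain 129.C57Bl6 and, on the labels, 10 to 12 weeks old, whereas the description deposited with the series calls them middle-aged to aged, so that their age is uncertain. The mutant allele lacks part of exon 2 of Lpar2. Mutants came from homozygous parents and WT mice (C57BL/6 mixed with 129/SvJ) from a colony of their own, so that genotype and colony cannot be told apart. The labels and methods name the hippocampus, but the study's text also speaks of the dentate gyrus for these libraries.

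AMPA receptors are tetramers that carry most of the fast excitatory current between neurons. In the hippocampus GluA1 (Gria1) and GluA2 (Gria2) make up most receptors, and GluA2 decides whether the channel passes calcium, because its pre-mRNA is edited by the deaminase ADAR2 at the glutamine/arginine (Q/R) site of the pore loop. TARPs bring receptors to the surface, tie them to PSD-95 at the synapse and slow their closing, and cornichons help them leave the endoplasmic reticulum and further slow their kinetics.

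The Q/R site is shown first because it sets what a gene count can and cannot tell. The 60 bases of coding sequence around it were read from the GENCODE M21 transcripts (GRCm38, the mm10 assembly) and are written 5′ to 3′ on the coding strand, with the codon of the Q/R site in capitals. Each stretch is joined from 2 exons, and the coordinates run from its first to its last base across the intron between them. They are chr11:57243067-57283516 on the plus strand for Gria1, chr3:80702650-80706940 on the minus strand for Gria2, chrX:41610238-41620803 on the plus strand for Gria3 and chr9:4462098-4464166 on the minus strand for Gria4.
Gria1: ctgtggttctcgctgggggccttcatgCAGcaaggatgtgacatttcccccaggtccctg
Gria2: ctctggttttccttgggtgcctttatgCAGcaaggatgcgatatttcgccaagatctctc
Gria3: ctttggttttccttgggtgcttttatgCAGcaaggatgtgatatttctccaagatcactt
Gria4: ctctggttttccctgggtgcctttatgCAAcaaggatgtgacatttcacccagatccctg

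The genome thus encodes glutamine in all 4 genes, as CAG in Gria1, Gria2 and Gria3 and as CAA in Gria4, and arginine arises only by editing of the RNA. Reads counted per gene hold no information on the edited base, so the Gria2 values below are sums of edited and unedited transcripts, and likewise of the flip and flop splice forms. Gria2 and Gria3 share 54 of the 60 bases, and the longest run of identical bases between the annotated transcripts of any pair of subunits was 57, between Gria3 and Gria4. Runs among the TARPs were 14 to 23 bases and that between the cornichons was 19 bases. Reads within the longest of these runs could match more than 1 gene and would then not have been counted.

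The TARPs are shown by the end of their coding sequence, because the last 4 codons before the stop, in capitals, encode the tail by which these proteins bind PSD-95. The 30 bases are those of chr15:77995149-77995178 (minus strand) for Cacng2, chr7:122768817-122768846 (plus strand) for Cacng3, chr11:107734780-107734809 (minus strand) for Cacng4 and chr7:3415576-3415605 (plus strand) for Cacng8, from the same transcripts.
Cacng2: acagccaaccgccggACCACGCCCGTAtga
Cacng3: ccggccaacagacgtACCACGCCTGTCtga
Cacng4: atgctgaaccggcggACGACTCCCGTGtga
Cacng8: acgctcaacaggaaaACCACGCCCGTGtag

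The capitals differ between the 4 genes only in bases that leave the encoded residues as they are, whereas Cacng5 and Cacng7, the 2 other family members that bind AMPA receptors, end in other residues. The counted gene models, in mm10, span chr11:57011618-57330244 (Gria1, plus strand), chr3:80684936-80802791 (Gria2, minus), chrX:41401301-41678601 (Gria3, plus) and chr9:4417893-4796234 (Gria4, minus). The TARP genes are chr15:77993623-78119280 (Cacng2, minus), chr7:122671744-122769394 (Cacng3, plus), chr11:107734780-107794464 (Cacng4, minus) and chr7:3394117-3415605 (Cacng8, plus), and the cornichon genes chr19:5092868-5098521 (Cnih2, minus) and chr1:181352628-181460641 (Cnih3, plus). The share of each gene's annotated exons that was counted differed. For Cacng4 it was almost only coding sequence, 984 bases or 28.1% of the exon length in GENCODE, against 52.4% for Cacng2, 54.9% for Cacng3, 66.3% for Gria2, 72.8% for Cacng8 and at least 97.5% for the others. Within Cacng8, 91 counted bases overlapped the gene Gm23450 on the same strand, so that its reads there are uncertain. Cnih2 overlaps Yif1a on the opposite strand, which counting by strand keeps apart.

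Gene counts per library totalled 15434620 to 23258949 reads. Lpar2 itself was read more often in the mice labelled LPAR2-/-, at 8.20, 9.47 and 12.3 CPM (lowest, median and highest mouse; a count scaled to the size of its library) against 1.51, 2.73 and 3.23 CPM in WT mice (log2 fold change 2.01, SE 0.16, adjusted p = 8.22e-07 in edgeR). The groups did not overlap. The count of the whole gene does not read the deleted part alone and so does not check the labels, and every direction below rests on them. Markers of neurons, excitatory neurons, dentate granule cells, CA1, CA3, interneurons and astrocytes were present in all libraries, and none of these genes passed the test. A few libraries stood apart from their genotype in the summed level of a marker list. They were WT mouse 2 for CA1 (331 CPM, next 135), WT mouse 1 for oligodendrocyte precursors (125 CPM, next 147), LPAR2-/- mouse 3 for oligodendrocytes (3635 CPM, next 1800) and LPAR2-/- mouse 2 for choroid plexus (285 CPM, next 51.1). The differences of the members, their ratios and correlations, and the called genes named below were therefore also computed without these 4 libraries, an alternative chosen after seeing the data.

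In WT mice the AMPA receptor transcripts spanned a wide range of levels, compared here as RPKM, which is the CPM divided by the counted length in kilobases. Gria1 was the highest with 264 ± 12.9 RPKM (mean ± SD, n = 7), followed by the cornichon Cnih2 with 228 ± 18.5 and by Gria2 with 138 ± 7.05. A middle group followed with Gria3 (50.3 ± 2.76), Cacng8 (46.3 ± 2.19), Cnih3 (42.1 ± 3.28) and Cacng3 (38.7 ± 3.45), and Cacng2 (16.2 ± 1.36), Gria4 (8.70 ± 0.99) and Cacng4 (5.79 ± 0.51) were the lowest. Neighbours in the middle group overlapped in their ranges. Within the same mouse, Cacng8 was above Cnih3 in 7 of 7 WT mice, Gria3 above Cacng8 in 6 and Cnih3 above Cacng3 in 5, so that of these neighbours Cacng8 and Cnih3 kept their order in every WT mouse. The ranges of the other neighbours were apart, that of Gria1 and Cnih2 only just (lowest Gria1 253, highest Cnih2 252). The uncounted exon parts limit this order, above all for Cacng4.

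**Figure D1:**
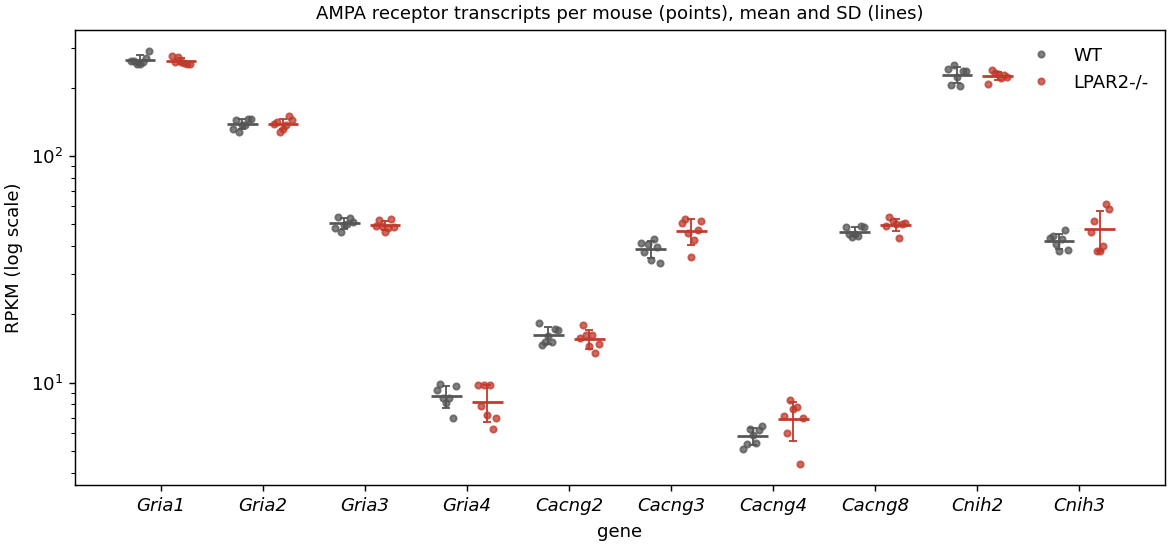
Level of each AMPA receptor transcript in every mouse (points; RPKM, logarithmic axis) by genotype, with the mean and SD of 7 mice as lines. The genotypes overlap for each gene, and the genes span from about 5.79 RPKM (Cacng4, WT mean) to 264 RPKM (Gria1, WT mean).

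Within each family 1 or 2 members prevailed. Of the summed RPKM of the subunits, Gria1 accounted for 57.3% in WT and 57.2% in LPAR2-/- mice, Gria2 for 29.9% and 30.2%, Gria3 for 10.9% and 10.8%, and Gria4 for 1.89% and 1.79%. Among the TARPs, Cacng8, the main TARP of hippocampal pyramidal cells, held 43.3% in WT and 41.9% in LPAR2-/- mice, Cacng3 36.2% and 39.1%, Cacng2 (stargazin) 15.1% and 13.1%, and Cacng4 5.42% and 5.84%. Cnih2 made up 84.4% of the cornichon transcripts in WT and 82.6% in LPAR2-/- mice.

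No member passed the test for a difference between the genotypes. Of the 10 members 0 were called, 0 higher and 0 lower, at an adjusted p under 0.05 in edgeR's quasi-likelihood test over all 14897 genes, where 6.77% of all genes were called, 3.32% higher and 3.46% lower in LPAR2-/- mice. At an unadjusted p under 0.05, 3 of the 10 members (Cacng3, Cacng4 and Cacng8, all TARPs) passed, against 22.4% of all genes. The genotypes overlapped for all 10 members, and 1.77% of all genes had groups that did not overlap. In DESeq2, 1 of the 10 members (Cacng3) was called, where 9.32% of all genes were. The median log2 fold change of the members was -0.0067, next to 0.0029 over all genes tested. In this bulk tissue, fewer cells of a type and less RNA per cell cannot be told apart.

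The subunits that form most hippocampal receptors were at nearly equal levels. Gria1 was at 1510, 1559 and 1734 CPM (lowest, median and highest) in WT mice and at 1518, 1556 and 1644 CPM in LPAR2-/- mice. Its log2 fold change was -0.012 (SE 0.039, adjusted p = 0.890 in edgeR), and the 95% interval reached from a change of -6.36% to 4.99%. Gria2 was at 988, 1060 and 1129 CPM in WT and at 983, 1069 and 1157 CPM in LPAR2-/- mice, with LPAR2-/- mouse 6 above and mouse 3 below all WT mice. Its log2 fold change was -0.0011 (SE 0.044, adjusted p = 0.993 in edgeR) and its interval -6.34% to 6.61%. Both intervals thus end below a change of 7% in either direction.

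The 2 minor subunits did not differ beyond their spread either. Gria3, which is X-linked and mostly pairs with Gria2, was at 245, 267 and 287 CPM in WT and at 245, 261 and 281 CPM in LPAR2-/- mice (log2 fold change -0.028, SE 0.042, adjusted p = 0.748 in edgeR). Gria4, in the adult hippocampus mainly a subunit of interneurons, was at 42.8, 52.7 and 60.4 CPM in WT and at 38.2, 48.6 and 60.3 CPM in LPAR2-/- mice (log2 fold change -0.08, SE 0.11, adjusted p = 0.707). With an interval of -19.5% to 10.9% the data limit the change of Gria4 less closely than that of the other subunits. Its coefficient of variation was 11.4% in WT and 18.4% in LPAR2-/- mice, against 3.33% to 5.48% for the other subunits in either genotype. The interneuron markers, 0 of 6 called, summed to 586 to 686 CPM in WT and 493 to 709 CPM in LPAR2-/- mice, and their part in the spread of Gria4 was not tested.

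None of the TARPs passed the test. Cacng3 had the smallest p of all members. It was at 51.6, 60.4 and 65.4 CPM in WT and at 54.4, 72.1 and 80.4 CPM in LPAR2-/- mice, so that 5 of 7 LPAR2-/- mice lay above all WT mice and only LPAR2-/- mouse 4 lay below the WT median. Its log2 fold change was 0.26 (SE 0.08, 95% interval 0.10 to 0.43, unadjusted p = 0.00436, adjusted p = 0.0581 in edgeR), or 20.1% with an interval of 6.82% to 35.0%. The call depends on the tool and on single mice. The adjusted p was 0.0259 in DESeq2, 0.0394 with upper quartile scaling and 0.0108 without LPAR2-/- mouse 4, but 0.191 without the 4 libraries that stood apart, with a log2 fold change of 0.24. Of the 14 edgeR fits with 1 mouse left out, only that without LPAR2-/- mouse 4 passed, and their highest adjusted p was 0.118.

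Cacng8 was at 60.4, 62.5 and 67.8 CPM in WT and at 59.8, 69.3 and 73.9 CPM in LPAR2-/- mice. In 6 of 7 LPAR2-/- mice it was above all WT mice, and in LPAR2-/- mouse 5 it was below them all. The log2 fold change was 0.10 (SE 0.045, adjusted p = 0.185 in edgeR), and the interval of 0.55% to 14.6% is narrow, as Cacng8 had the least spread of the TARPs. Cacng4, the TARP with the fewest reads (72 to 190 counts per library), was at 5.01, 5.75 and 6.30 CPM in WT and at 4.30, 6.98 and 8.23 CPM in LPAR2-/- mice. Of the LPAR2-/- mice, 5 lay above all WT mice and mouse 6 below them. The log2 fold change was 0.26 (SE 0.12, adjusted p = 0.211 in edgeR). It was 0.34 with an adjusted p of 0.0393 without LPAR2-/- mouse 6, and 0.18 with an adjusted p of 0.510 without the 4 libraries that stood apart. Only 1 of the 14 edgeR fits with 1 mouse left out, that without LPAR2-/- mouse 6, passed, and their highest adjusted p was 0.331. Cacng2, the founding TARP, was at 42.5, 46.5 and 53.0 CPM in WT and at 38.8, 45.4 and 51.8 CPM in LPAR2-/- mice (log2 fold change -0.06, SE 0.064, adjusted p = 0.632 in edgeR).

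Neither cornichon passed the test. Cnih2 was at 278, 323 and 344 CPM in WT and at 283, 310 and 326 CPM in LPAR2-/- mice (log2 fold change -0.019, SE 0.050, adjusted p = 0.864 in edgeR). Cnih3 was at 103, 117 and 128 CPM in WT and at 103, 126 and 167 CPM in LPAR2-/- mice, where mice 2, 6 and 7 lay above all WT mice. Its log2 fold change was 0.18 (SE 0.11, adjusted p = 0.356 in edgeR). The coefficient of variation of Cnih3 was 20.3% in LPAR2-/- against 7.81% in WT mice, and a change of up to 32.4% lies within its interval.

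**Figure D2:**
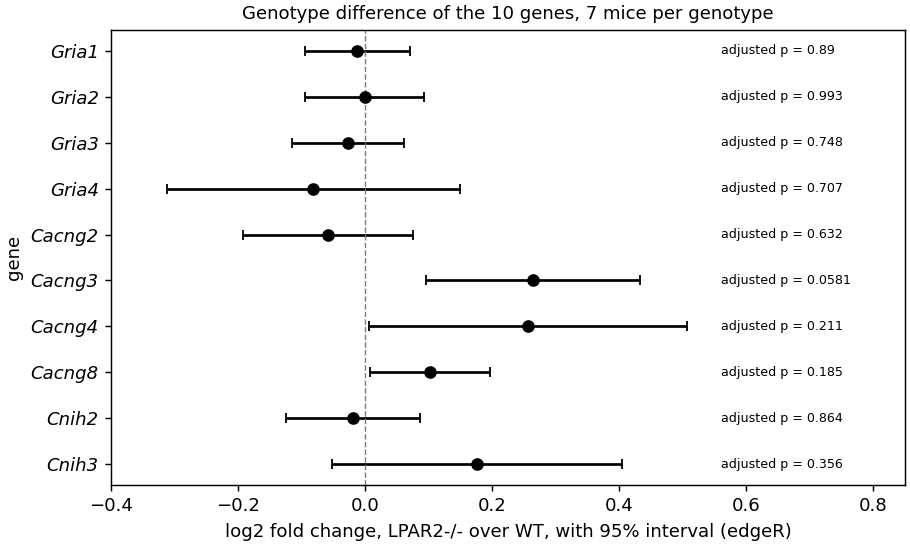
Log2 fold change of each member in LPAR2-/- over WT mice (points) with its 95% interval (bars) from edgeR, 7 mice per genotype, with the adjusted p beside it. The intervals of Gria1, Gria2 and Gria3 lie close around 0, and Cacng3 at 0.26 lies farthest from 0 without passing the threshold (adjusted p = 0.0581).

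The makeup of a receptor depends on the proportion of its parts, so 7 ratios within each mouse were compared as log2 of length-scaled counts, by exact two-sided permutation tests over the 3432 arrangements of the mice, whose smallest p is 0.000583. After Benjamini-Hochberg adjustment 0 of the 7 ratios differed, and 1 did before it. Gria1 to Gria2, the pair that forms the main receptor, was at 0.85, 0.92 and 0.99 (lowest, median and highest) in WT and at 0.77, 0.90 and 1.11 in LPAR2-/- mice (difference -0.010, permutation p = 0.833, adjusted p = 0.833). Gria3 to Gria2 differed by -0.026 (permutation p = 0.346, adjusted p = 0.57) and Gria4 to Gria2 by -0.09 (permutation p = 0.515, adjusted p = 0.601).

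The ratio with the lowest p was that of the TARPs Cacng2 and Cacng8. It was at -1.62, -1.52 and -1.40 in WT and at -1.90, -1.67 and -1.42 in LPAR2-/- mice, with 1 of 7 LPAR2-/- mice above the WT median. The difference was -0.16 (permutation p = 0.0274, adjusted p = 0.192), and without LPAR2-/- mouse 5, the mouse low in Cacng8, it was -0.20 (adjusted p = 0.0122 by the exact permutation test). Of the 14 tests with 1 mouse left out, only that 1 passed, and their highest adjusted p was 0.392. Cacng3 to Cacng8 was higher than the WT median in 6 of 7 LPAR2-/- mice (difference 0.16, permutation p = 0.112, adjusted p = 0.392). Cacng4 to Cacng8 differed by 0.12 (permutation p = 0.406, adjusted p = 0.57) and Cnih3 to Cnih2 by 0.17 (permutation p = 0.203, adjusted p = 0.473).

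**Figure D3:**
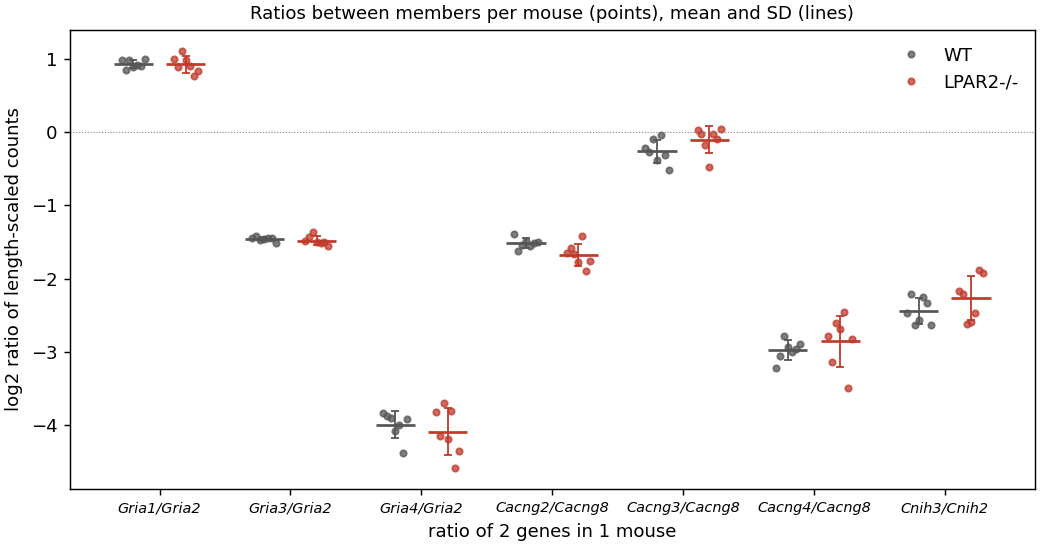
Log2 ratio of length-scaled counts of 2 members in every mouse (points) by genotype, with mean and SD of 7 mice as lines. The genotypes overlap in all 7 ratios, and Cacng2/Cacng8 shows the lower mean in LPAR2-/- mice (-1.68 against -1.52).

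The members were also compared across the 14 mice after removal of the genotype means. Of the 45 pairs, 0 passed the permutation test (100000 permutations within genotype, Benjamini-Hochberg adjustment), and 5 had an unadjusted p under 0.05. The median r over the pairs was 0.11. Gria2 and Gria3 were the most alike (Pearson r = 0.79, permutation p = 0.00179, adjusted p = 0.0805; Spearman rho = 0.72, permutation p = 0.00732, adjusted p = 0.159). The value was 0.87 without the 2 mice farthest from the median, 0.93 within WT and 0.63 within LPAR2-/- mice. Cacng4 and Cnih3 went in opposite directions (r = -0.75, permutation p = 0.00565, adjusted p = 0.127; rho = -0.75, permutation p = 0.00702, adjusted p = 0.159). Their r was -0.54 without the 2 farthest mice, -0.81 within LPAR2-/- and -0.35 within WT mice. For Gria2 and Cnih3 r was 0.67 (permutation p = 0.00958, adjusted p = 0.144) and rho 0.67 (permutation p = 0.0106, adjusted p = 0.159), with 0.46 without the 2 farthest mice, 0.92 within LPAR2-/- mice and 0.19 within WT mice.

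LPAR2-/- mouse 6 stood at an end of its genotype in 7 of 10 members. It was the lowest in Gria1 (1518 CPM), Gria4 (38.2 CPM), Cacng2 (38.8 CPM) and Cacng4 (4.30 CPM) and the highest in Gria2 (1157 CPM), Gria3 (281 CPM) and Cnih3 (167 CPM). Without this mouse the log2 fold change was 0.11 for Cnih3 and -0.025 for Gria4. The same library had the lowest sums of all mice for markers of interneurons (493 CPM), neurons (5284 CPM) and CA1 (83.8 CPM). It was also the lowest for oligodendrocyte precursors (112 CPM), oligodendrocytes (880 CPM) and thalamus (53.7 CPM). Its sum of dentate granule cell markers was the second highest (1059 CPM, after 1093 CPM in LPAR2-/- mouse 7). Its sum of excitatory neuron markers (9335 CPM) was above the medians of WT (9102 CPM) and LPAR2-/- mice (8723 CPM). The part of these markers in the members' values in this mouse was not tested.

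**Figure D4:**
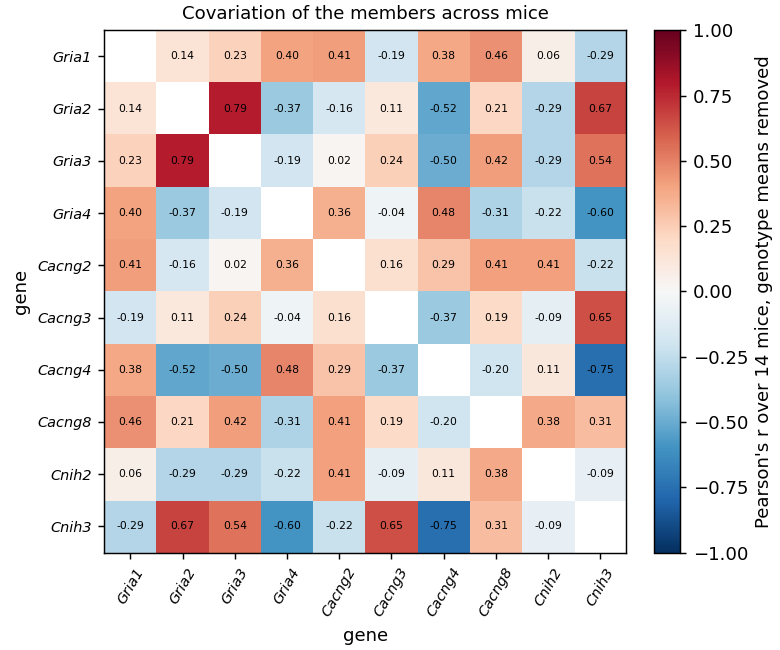
Pearson's r between each pair of members over 14 mice after removal of the genotype means (colour scale -1 to 1, values in the cells). Gria2 and Gria3 form the strongest positive pair (0.79) and Cacng4 and Cnih3 the strongest negative one (-0.75), neither past the threshold after adjustment.

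Over all genes tested, the genes whose levels followed each subunit most closely across the 14 mice are given as a description. For Gria1 they were Arid1b (r = 0.93), Catsperd (0.85) and Fam134b (0.85), and for Gria2 Otud4 (0.94), Zfp655 (0.90) and Edem3 (0.90). For Gria3 they were Prmt3, Arl14ep and Surf6 (each 0.83), and for Gria4 the noncoding RNA Rian (0.93), Oxr1 (0.92) and Ankrd34b (0.91). No other AMPA receptor member was among the 3 most alike genes of any subunit. The genes named were the highest of 14897 over 14 mice and were not tested, so that this absence says little. Gria2 and Gria3, for example, had an r of 0.79.

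Of 73 tested genes in 7 further lists of the pathway, 5 passed the test in edgeR, or 6.85%, a share near the 6.77% of all genes. Among 20 tested further constituents of AMPA receptor complexes 1 was higher and 0 lower in LPAR2-/- mice (median log2 fold change -0.0096). Shisa8 had too few reads to be tested. The gene that rose was Cacng5, which encodes a TARP with weaker effects on the receptor. It was at 11, 13.7 and 19.9 CPM in WT and at 18.7, 19.7 and 22.3 CPM in LPAR2-/- mice (log2 fold change 0.49, SE 0.11, adjusted p = 0.0124 in edgeR), and its log2 fold change was 0.46 with an adjusted p of 0.0824 without the 4 libraries that stood apart. The groups overlapped, with 3 LPAR2-/- mice above all WT mice. For Nrn1 (neuritin) the log2 fold change was -0.19 (adjusted p = 0.133 in edgeR).

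Of 14 genes for the synaptic anchoring of AMPA receptors 0 were higher and 1 was lower (median log2 fold change -0.023). Nptx2, a secreted pentraxin that clusters AMPA receptors and is induced by neuronal activity, was at 15.5, 24.4 and 28.8 CPM in WT and at 11.1, 13 and 19.2 CPM in LPAR2-/- mice (log2 fold change -0.72, SE 0.14, adjusted p = 0.0101 in edgeR). In 5 of 7 LPAR2-/- mice it was below all WT mice. Nptxr, with the other large value in this list, was at a log2 fold change of 0.21 (adjusted p = 0.738 in edgeR), but was counted at only 0.68 to 2.97 CPM, so that little can be said of it.

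Of 13 trafficking genes 1 was higher and 1 lower (median log2 fold change -0.056), and 8 had an unadjusted p under 0.05, 2 of them with a fold change above 0 and 6 below it. That count was 3 of 20 for the further constituents, 2 of 14 for anchoring, 1 of 11 for kinases and phosphatases, 2 of 3 for editing enzymes, 1 of 7 for NMDA and 1 of 5 for kainate receptor subunits, against 22.4% of all genes. Of the trafficking genes in that count, Rab8a (chr8:72161200-72181366) and Vps35 (chr8:85260392-85299497) lie on the chromosome of Lpar2 (chr8:69822565-69831102). Arc, an activity-induced protein that promotes endocytosis of AMPA receptors, was at 48.4, 72.9 and 109.5 CPM in WT and at 23.2, 39.1 and 52.6 CPM in LPAR2-/- mice, in 5 of which it was below all WT mice. It fell by 0.94 on the log2 scale (SE 0.20, adjusted p = 0.0155 in edgeR). Dnm3, a dynamin of the postsynaptic endocytic zone, was at 88.4, 91.9 and 103 CPM in WT and at 107, 122 and 129 CPM in LPAR2-/- mice. All LPAR2-/- mice were above all WT mice, and Dnm3 rose by 0.36 on the log2 scale (SE 0.047, adjusted p = 0.000342 in edgeR).

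Of 11 kinase and phosphatase genes that act on AMPA receptors 1 was higher and 0 lower (median log2 fold change -0.0041). Prkaca, the catalytic subunit of protein kinase A, was at 185, 207 and 233 CPM in WT and at 223, 243 and 252 CPM in LPAR2-/- mice (log2 fold change 0.19, SE 0.048, adjusted p = 0.0257 in edgeR). This call was lost on leaving out any of 6 of the 14 mice (LPAR2-/- mice 1 and 2 and WT mice 2, 4, 5 and 6), with adjusted p values of up to 0.0612 and log2 fold changes of 0.16 to 0.19, close to that of all mice. Prkaca (chr8:83972978-83996442) also lies on the chromosome of Lpar2. The part of DNA linked to the mutated gene in its difference was not tested. The log2 fold change of Prkca was -0.25 (adjusted p = 0.290 in edgeR).

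Of the editing enzymes, ADAR2 acts on the Q/R site printed above. Of the 3 genes in this list 0 were called. Adarb1, which encodes ADAR2, was at 238, 255 and 271 CPM in WT and at 197, 229 and 251 CPM in LPAR2-/- mice (log2 fold change -0.16, SE 0.054, unadjusted p = 0.00764, adjusted p = 0.0810 in edgeR). Adar stood at a log2 fold change of -0.11 (unadjusted p = 0.0156, adjusted p = 0.119 in edgeR).

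The other ionotropic glutamate receptors gave no call. Of 7 NMDA receptor subunits 0 were called (median log2 fold change 0.014), with the widest values for Grin3b (-0.37, adjusted p = 0.334 in edgeR) and Grin2d (0.15, adjusted p = 0.286). Grin2a and Grin2b, named after their values were seen, were counted at only 2.09 to 4.61 and 3.20 to 4.26 CPM, against 538 to 693 CPM for Grin1, so that little can be said of them here. Of 5 kainate receptor subunits 0 were called (median log2 fold change -0.042), with Grik3 at -0.17 (adjusted p = 0.350 in edgeR) and Grik2 at -0.15 (adjusted p = 0.304).

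**Figure D5:**
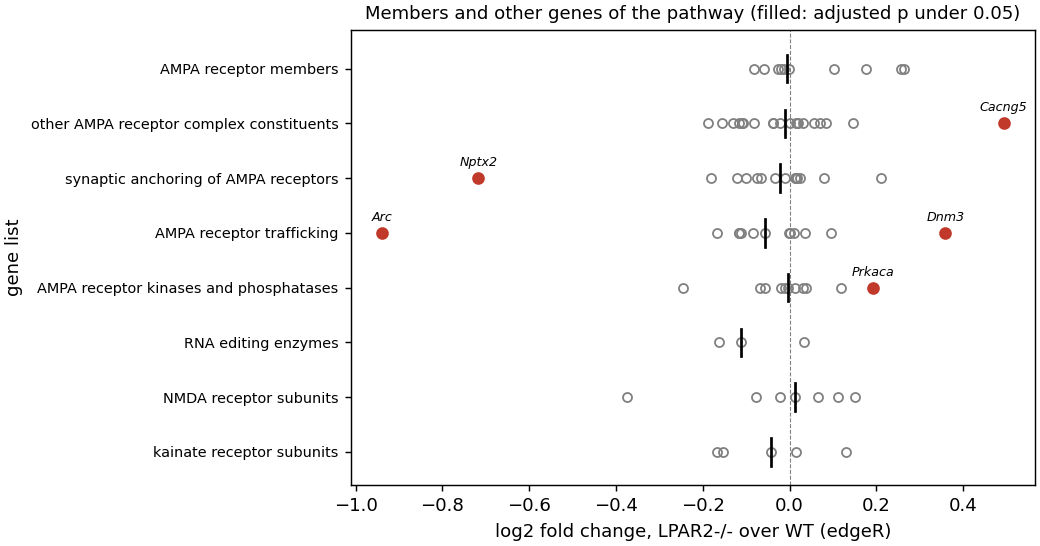
Log2 fold change in LPAR2-/- over WT mice of the 10 members and of the genes of 7 further lists (circles; filled and named where the adjusted p in edgeR was under 0.05), with the median of each list as a bar. No member is filled, and 5 genes of the other lists are (Cacng5, Nptx2, Arc, Dnm3 and Prkaca).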

How the data were processed

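Hippocampal RNA of 14 mice was analysed. The authors used cutadapt 1.18 for trimming, STAR for alignment to mm10 and featureCounts 1.6.3 for counting (exons, reverse strand, summed per gene). The deposited values are raw counts. The STAR version, the read length and any batch are not given in the sources used here. A deposited table of normalized values was not used. From the counts, genes were kept by filterByExpr, normalized by TMM and compared by the quasi-likelihood test of edgeR 4.0.16 with robust estimation (R 4.3.3), with Benjamini-Hochberg adjustment over all 14897 genes and a threshold of 0.05. CPM and RPKM used TMM-scaled library sizes and the deposited gene lengths, and log2 values a prior count of 2. Totals of 15434620 to 23258949 counts per mouse limit the precision. A gene read 0 times could still be present at up to 3 counts, which covers counting error only. Figures were drawn with matplotlib.

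The members and lists were chosen with earlier results of these data known. Named were all members, every called gene of the other lists, the 2 largest changes of each list, the 3 genes most like each subunit and Lpar2. Alternatives were DESeq2 1.42.0, DESeq2 size factors, upper quartile scaling, other filters (none, or at least 10 counts in every library), a prior count of 0.5, Spearman's rho, the mouse number as a replicate block and each mouse left out. No library repeated another of its genotype (the closest of 42 pairs had a chi-square of 3.29 per degree of freedom). The mice are separate animals, but nothing names their litters. The scripts were tested on simulated data.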

Additional observations from a re-analysis of the deposited data

Results flagged for a closer look

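Among 66 groups of 7 mice (10 members, 7 ratios and 16 marker lists, each in both genotypes), 6 held a mouse far from the others, where chance alone gives about 1 in 20 groups. Cacng8 was at 59.8 CPM in LPAR2-/- mouse 5, with the next mouse of that genotype at 67.9 CPM. The Cacng3 to Cacng8 ratio was -0.48 on the log2 scale in LPAR2-/- mouse 4, with the next at -0.18. Of the marker sums, that of CA1 was 331 CPM in WT mouse 2 (next 135), that of oligodendrocyte precursors 125 CPM in WT mouse 1 (next 147), that of oligodendrocytes 3635 CPM in LPAR2-/- mouse 3 (next 1800) and that of choroid plexus 285 CPM in LPAR2-/- mouse 2 (next 51.1). The part of these libraries in the members' values was not tested beyond leaving them out.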

How the results depend on the processing

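No member was called in edgeR with DESeq2 size factors, with no filter, with at least 10 counts in every library or with the replicate block. Cacng3 was called in DESeq2 (log2 fold change 0.26, adjusted p = 0.0259) and with upper quartile scaling (0.28, adjusted p = 0.0394), which makes 1 member called in each. Upper quartile scaling also turned the signs of Gria1 (0.0077), Gria2 (0.019) and Cnih2 (0.00028), and made 62.0% of the calls higher ones, against 49.0% with TMM. The replicate block left 314 genes higher and 272 lower, and Arc then had an adjusted p of 0.0670 (log2 fold change -0.93) and Lum of 0.0534 (0.54). Mice of the same number were not alike (3 of 7 correlations above 0.1), so the numbers do not pair the mice. Without the 4 libraries that stood apart, an alternative chosen after seeing the data, Gria2 was at 0.017, 1 pair of members was correlated, and 344 genes were higher and 390 lower. DESeq2 called 1388 genes.

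Without 1 mouse, the log2 fold change ranged from -0.024 to 0.011 for Gria1, from -0.021 to 0.018 for Gria2, from -0.046 to 0.0053 for Cnih2, from 0.23 to 0.32 for Cacng3, from 0.20 to 0.34 for Cacng4, from -0.048 to -0.0099 for Gria3, from -0.13 to -0.025 for Gria4, from -0.096 (without LPAR2-/- mouse 2) to -0.026 (without WT mouse 1) for Cacng2 and from 0.11 to 0.23 for Cnih3. The log2 fold change of Cacng8 ranged from 0.084 (without LPAR2-/- mouse 2) to 0.135 (without LPAR2-/- mouse 5). The Gria1/Gria2 difference ranged from -0.041 to 0.016, that of Cacng2/Cacng8 from -0.20 to -0.12, that of Gria3/Gria2 from -0.045 to -0.013, that of Gria4/Gria2 from -0.16 to -0.011, that of Cacng4/Cacng8 from 0.057 to 0.23 and that of Cnih3/Cnih2 from 0.11 to 0.23. The Cacng3/Cacng8 difference ranged from 0.12 (without WT mouse 7) to 0.22 (without LPAR2-/- mouse 4). LPAR2-/- mouse 6 set the end nearer 0 for Cnih3, Gria4, Gria4/Gria2 and Cnih3/Cnih2, and LPAR2-/- mouse 5 for Cacng4/Cacng8. From 0 to 1 members and 0 to 1 ratios passed, and 0 to 2 pairs were correlated (2 without WT mouse 7, 1 without LPAR2-/- mouse 3). Genes called higher were 275 (without WT mouse 2) to 660 (without WT mouse 1), and lower 292 to 725 (without the same mice). The causes were not tested. Cacng4 had the fewest reads and the widest interval.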

Other observations

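Of 75 tested genes in the 16 marker lists 2 were called, or 2.67%, against 6.77% of all genes, and 15 had an unadjusted p under 0.05, where 22.4% of all genes did. Gpr17, a receptor of oligodendrocyte precursors on the way to myelination, was at 43.0, 67.6 and 73.7 CPM (lowest, median and highest) in WT and at 34.5, 40.7 and 47.9 CPM in LPAR2-/- mice (log2 fold change -0.66, SE 0.11, adjusted p = 0.00287 in edgeR). Without the 4 libraries that stood apart it was at -0.74 (adjusted p = 0.000305). The other precursor markers were not called and went both ways, with log2 fold changes of -0.24 for Olig2 (adjusted p = 0.123 in edgeR), 0.034 for Cspg4 (adjusted p = 0.823) and 0.17 for Pdgfra (adjusted p = 0.106). Of the oligodendrocyte markers 0 of 5 were called. Lum (lumican), an extracellular matrix protein of the meninges, was at 5.72, 7.37 and 9.35 CPM in WT and at 8.27, 10.6 and 13.4 CPM in LPAR2-/- mice (log2 fold change 0.54, SE 0.12, adjusted p = 0.0132 in edgeR), and without those 4 libraries at 0.61 (adjusted p = 0.0222). The marker sums and list medians were not recomputed without them. The summed meningeal markers were at 27, 42.2 and 107 CPM in WT and at 29.2, 82.0 and 135 CPM in LPAR2-/- mice, with 4 of 5 markers above 0 (median log2 fold change 0.67), 3 at an unadjusted p under 0.05 and 1, Lum, called. Of the other lists, all tested microglia (5, median log2 fold change 0.13), oligodendrocyte (5, median 0.17) and choroid plexus markers (3, median 1.92, 2 of them at an unadjusted p under 0.05) were above 0, with 0 called. All 6 striatal markers were also above 0 (median log2 fold change 0.18), with 4 at an unadjusted p under 0.05 and 0 called, and summed to 57.7, 62.8 and 68.2 CPM in WT and to 67.1, 70.3 and 77.8 CPM in LPAR2-/- mice. The part of these markers in the members' values was not tested.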
